A study of Mus musculus with 50 samples.

Results

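Acute phase protein transcripts were followed in liver and liver tumours of male C3H/He mice, a strain prone to liver tumours. The genes were the 3 serum amyloid A genes Saa1, Saa2 and Saa3, the 3 orosomucoid genes Orm1, Orm2 and Orm3, haptoglobin (Hp), haemopexin (Hpx), lipocalin 2 (Lcn2) and serum amyloid P component (Apcs), which are 10 of the 45792 genes of the count table, chosen by their symbols. RNA-seq libraries came from mice fed a control diet or the ALIOS diet, a high fat, high trans-fat diet given with fructose in the drinking water, with some mice given the carcinogen DEN (diethylnitrosamine) while on the diets, and all tissue was labelled as harvested at 48 weeks. The non-tumour livers numbered 12 from control diet fed mice (N1 to N12) and 11 from ALIOS fed mice (N13 to N23). The tumours of mice without DEN numbered 12 from ALIOS fed mice and 1 from a control diet fed mouse (T7), and those of DEN treated mice numbered 8 from ALIOS fed and 5 from control diet fed mice (T17 to T21). A further tumour library on the ALIOS diet, T1, was left out: it held 35347 CPM (reads of a gene scaled to a library of fixed size) of the kidney androgen-regulated transcript Kap, against at most 4.40 in the other 49 libraries, and 37.9 CPM of albumin, against at least 44338. No liver of a DEN treated mouse was among the libraries, so in each comparison of a DEN tumour with a liver, DEN and tumour cannot be told apart. The labels do not tie a tumour to the liver of a mouse, nor say that tumours came from separate mice, so p-values measure the spread between these samples only.

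Acute phase proteins are plasma proteins whose production by hepatocytes rises during infection, injury and inflammation. Interleukin 6 and related cytokines act through STAT3, interleukin 1 and tumour necrosis factor act through NF-kB, and C/EBP factors bind many of the promoters. In the mouse, serum amyloid A and serum amyloid P component are the main reactants, whereas the better known human C-reactive protein rises little. Saa1 and Saa2 encode apolipoproteins carried on high density lipoprotein, and Saa3 is also made by macrophages and fat. Orosomucoid is a plasma glycoprotein that binds basic drugs, haptoglobin takes up free haemoglobin, haemopexin takes up free haem, lipocalin 2 sequesters bacterial siderophores and with them iron, and serum amyloid P component is a pentraxin.

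In GRCm38 (mm10) coordinates from Gencode M21, the serum amyloid A genes lie together, with Saa3 at chr7:46711998-46715700, minus strand, Saa1 at chr7:46740497-46742980, minus strand, and Saa2 at chr7:46751790-46754313, plus strand. The orosomucoid genes also lie side by side, with Orm1 at chr4:63344560-63348163, plus strand, Orm3 at chr4:63356162-63359511, plus strand, and Orm2 at chr4:63362449-63365878, plus strand. Hp was at chr8:109575128-109579172, minus strand, Hpx at chr7:105591613-105600137, minus strand, Lcn2 at chr2:32384633-32388252, minus strand, and Apcs at chr1:172893961-172895041, minus strand. No exon of another annotated gene overlapped an exon of these 10 genes. Orm1 and Orm2 shared 47 of the 676 stretches of 100 bases, the read length, in their transcripts numbered 201. A read lying within such a stretch does not tell Orm1 from Orm2, and how such reads were counted is not given. No such stretch of the other 8 genes occurred in the transcript of another gene.

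Promoter sequences of 8 of the 10 genes were taken from RefSeq (GRCm38.p6, with 250 bases before the RefSeq start of the gene and 50 from it), and Orm1 and Hp had no entry. For some genes this start differs from the Gencode coordinates above, and the whole Lcn2 stretch lies inside the Gencode span of Lcn2. The letters TTGCNNAA, a core that C/EBP factors bind, were searched on both strands and were found in 7 of the 8 promoters (all but Apcs), compared with 10.8% of the 32851 promoters in the table. A match is a run of letters and not a measured binding site. The sequences are shown because Saa1, Saa2, Saa3 and Lcn2 spanned the widest ranges among the genes detected in every library, with the 3 serum amyloid A genes lower and Lcn2 higher in ALIOS tumours than in ALIOS livers, and each is read 5′ to 3′ along the gene with the match in capitals. Counting the first base of the gene in RefSeq as 0, the match began at -182 in Saa1, -183 in Saa2, -99 in Saa3 (on the opposite strand), and -216 in Lcn2.
Saa1 (chr7:46742931-46743230, minus strand): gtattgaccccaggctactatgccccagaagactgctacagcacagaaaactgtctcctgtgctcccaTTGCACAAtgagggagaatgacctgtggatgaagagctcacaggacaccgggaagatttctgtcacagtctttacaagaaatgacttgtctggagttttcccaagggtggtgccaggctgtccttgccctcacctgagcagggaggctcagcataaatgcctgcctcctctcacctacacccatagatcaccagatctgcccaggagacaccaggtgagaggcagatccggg
Saa2 (chr7:46751583-46751882, plus strand): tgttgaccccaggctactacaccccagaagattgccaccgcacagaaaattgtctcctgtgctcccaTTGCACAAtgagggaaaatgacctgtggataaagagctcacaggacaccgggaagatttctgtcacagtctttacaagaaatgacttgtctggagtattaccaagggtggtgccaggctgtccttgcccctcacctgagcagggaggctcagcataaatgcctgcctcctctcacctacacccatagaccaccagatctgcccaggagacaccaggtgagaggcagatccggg
Saa3 (chr7:46715627-46715926, minus strand): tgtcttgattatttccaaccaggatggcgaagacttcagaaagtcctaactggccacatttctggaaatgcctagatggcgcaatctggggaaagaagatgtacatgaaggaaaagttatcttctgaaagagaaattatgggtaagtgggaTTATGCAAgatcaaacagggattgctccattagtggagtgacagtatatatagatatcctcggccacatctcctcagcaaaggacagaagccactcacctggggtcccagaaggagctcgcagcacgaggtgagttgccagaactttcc
Lcn2 (chr2:32387690-32387989, minus strand): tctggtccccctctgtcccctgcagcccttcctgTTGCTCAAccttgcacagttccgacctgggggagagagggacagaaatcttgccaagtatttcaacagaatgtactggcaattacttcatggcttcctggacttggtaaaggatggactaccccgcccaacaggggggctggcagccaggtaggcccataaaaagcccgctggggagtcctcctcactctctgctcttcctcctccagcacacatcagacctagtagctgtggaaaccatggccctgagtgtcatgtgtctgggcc

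The Saa1 and Saa2 promoters were identical at 287 of 301 aligned positions (95.4%), against 54.1% for Saa1 and Saa3. The Orm2 and Orm3 promoters were identical at 86.6% of aligned positions, and their matches, at -120 and -121, fell in the same surroundings, shown with 30 bases on each side and beside the match of Hpx at -200.
Orm3 (chr4:63356007-63356074, plus strand): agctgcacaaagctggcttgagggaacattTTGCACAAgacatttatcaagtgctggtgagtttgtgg
Orm2 (chr4:63362299-63362366, plus strand): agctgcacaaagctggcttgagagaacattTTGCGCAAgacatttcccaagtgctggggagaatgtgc
Hpx (chr7:105600279-105600346, minus strand): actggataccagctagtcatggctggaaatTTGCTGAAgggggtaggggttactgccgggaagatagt
The letters TTCNNNGAA, which STAT factors bind, occurred only in the Apcs promoter among the 8 and in 8.3% of all promoters. The interleukin 6 response letters CTGGGAA occurred in Apcs at -129 and -52 and in Orm3 at 9, and in 11.1% of all promoters.

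The 49 libraries held between 23798251 and 45751398 counted reads, with a median of 32351263. Levels are given as CPM on library sizes adjusted by TMM, a normalization that sets aside the genes that differ most. The 15 hepatocyte markers summed to between 74412 and 223592 CPM per library, and none of the 15 was at 0 throughout a group. Since these are bulk tissues, fewer cells of a type and less RNA per cell cannot be told apart.

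Compared per kilobase of transcript, Hpx and Hp were the most abundant of the 10 genes in each of the 6 groups and Orm3 was the least abundant. In the ALIOS livers the median CPM per kilobase was 4993 for Hpx, 3487 for Hp, 1855 for Orm1, 1469.7 for Saa1, 718 for Apcs, 497 for Saa2, 141 for Lcn2, 76.7 for Orm2, 13.9 for Saa3 and 12.5 for Orm3. In the ALIOS tumours Lcn2, at 451, stood above Apcs at 393 and Saa1 at 163. That order of the 3 genes also held in the DEN tumours, where Lcn2 was at 460.1 in ALIOS fed and 660.3 in control diet fed mice, and Saa1 at 91.0 and 97.4. Neighbouring ranges overlapped for all 9 pairs in each group of 8 or more libraries and for 6 of 9 in the 5 control diet DEN tumours, where Hp did not overlap Orm1, Apcs did not overlap Saa1 and Saa3 did not overlap Orm3. In those 5 tumours the lowest Lcn2 level of 476 was above the highest Saa1 level of 226.

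**Figure D1:**
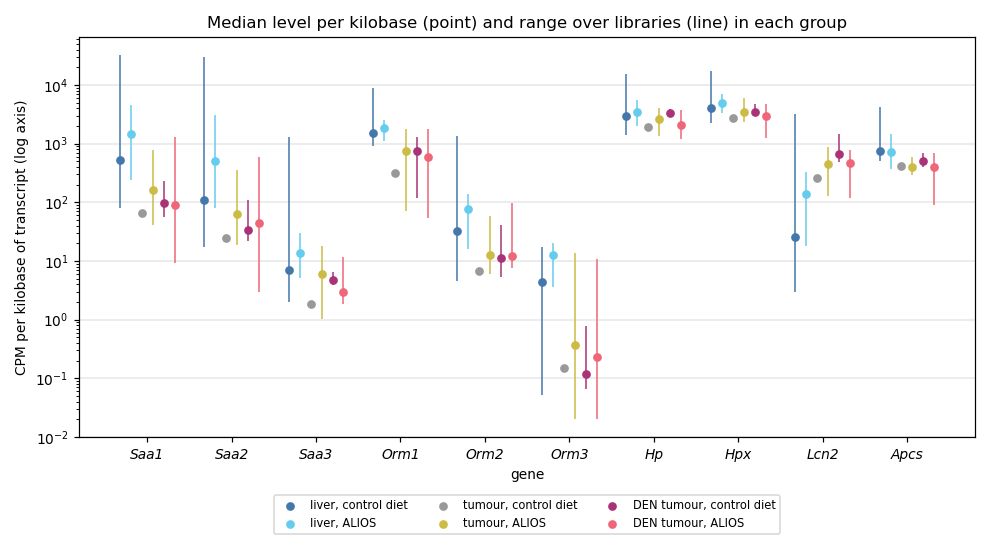
Median level of each gene in each group (points) and the range over libraries (lines), as CPM per kilobase of transcript on a log axis, with libraries at 0 drawn at 0.02. Hpx and Hp sit at the top in all 6 groups, and Lcn2 is the only gene whose 4 tumour medians all stand above both liver medians.

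Among the 12 control diet livers, N5, N6 and N7 stood apart, with higher levels of all 10 transcripts than any of the other 9. Saa1 was at 19338, 9577 and 6594 CPM in these livers, while the other 9 ranged from 49.2 to 507 with a median of 109. Lcn2 was at 2894, 1286 and 663 CPM, against 2.70 to 116 with a median of 7.32. The size of the gap differed between genes: the lowest of the 3 livers exceeded the median of the other 9 by 244 times for Saa2, 80.2 times for Saa3 and 46.6 times for Orm2, but by 3.81 times for Orm1, 2.72 times for Apcs, 2.60 times for Hp and 2.22 times for Hpx. The 10 transcripts took 8.28%, 5.62% and 3.72% of all counts in N5, N6 and N7, and between 0.591% and 1.55% in the other 9. Neutrophil markers (12 genes) summed to 16.2, 20.6 and 9.52 CPM in the 3 livers and to between 2.45 and 8.21 in the other 9, whereas macrophage markers (12 genes), at 334, 274 and 374 CPM, lay within the 195 to 514 of the others. The part of either cell type in the levels was not tested. The labels give nothing that sets these 3 livers apart, and because they were picked by these transcripts they are described and not compared by a test. Each comparison that uses the control diet livers is given with and without them.

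**Figure D2:**
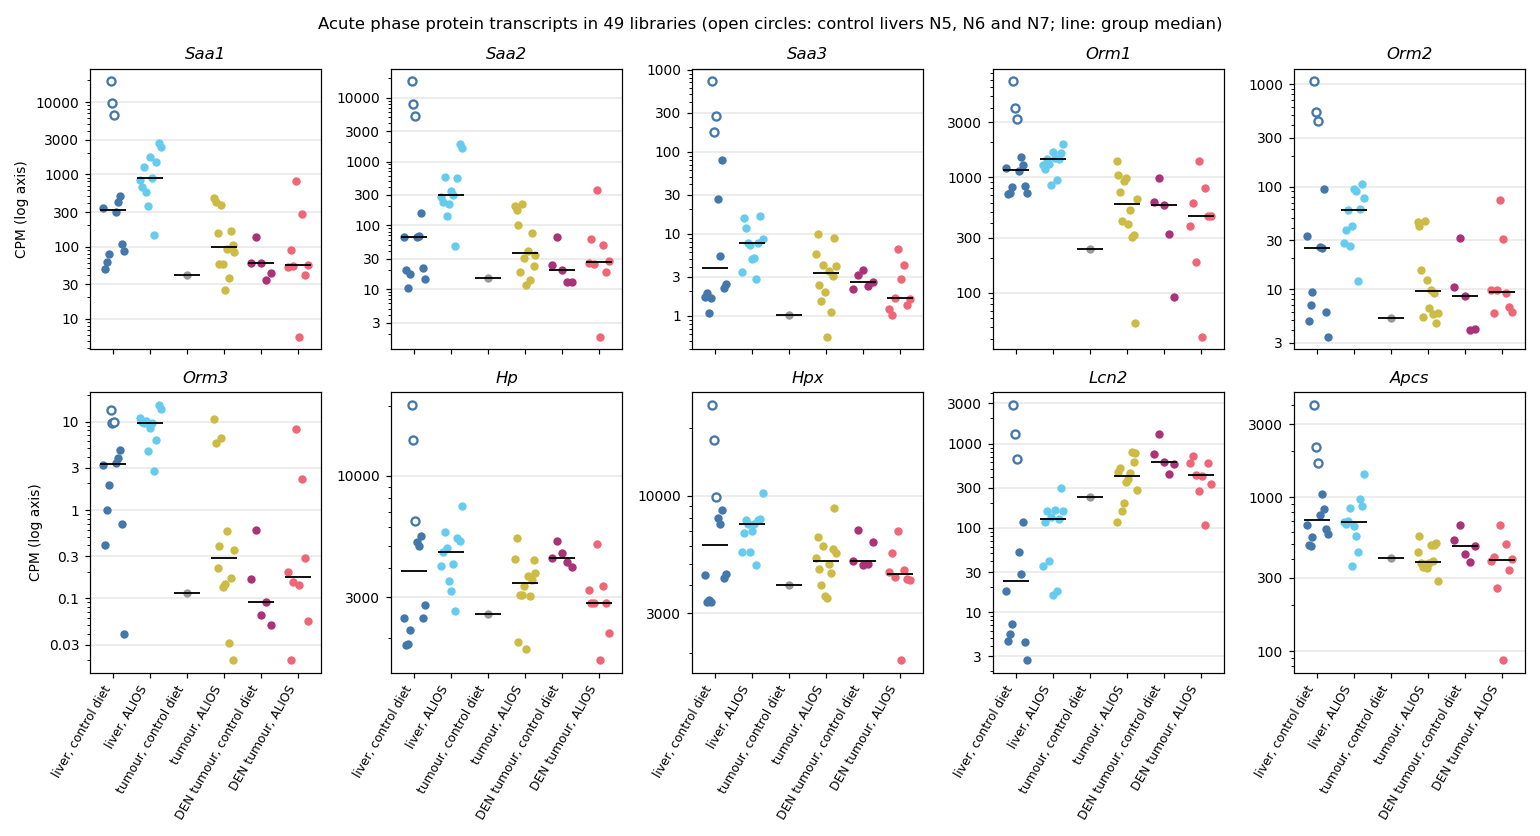
Level of each of the 10 transcripts in each of the 49 libraries as CPM on a log axis, with 1 point per library, a line at the group median, open circles for N5, N6 and N7, and libraries at 0 drawn at 0.02. The open circles are the highest control diet livers in every panel, most tumours lie below the ALIOS livers for Saa1, Saa2, Orm2 and Orm3, and most lie above them for Lcn2.

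The effect of the ALIOS diet on these transcripts in non-tumour liver was examined first. With all 12 control diet livers, Saa3 was the only gene of the 10 called, and it fell, where 4.51% of 13723 genes were called lower and 6.73% higher. Saa3 ranged from 1.10 to 723 with a median of 3.89 CPM in the control diet livers and from 2.80 to 16.7 with a median of 7.70 in the ALIOS livers, so the groups overlapped and the ALIOS median was the higher. The means had the opposite order, at 108 ± 212 (SD, n = 12) and 8.33 ± 4.59 (SD, n = 11), and the fitted difference followed the means (log2 fold change -3.72, SE 1.01, adjusted p = 0.0208). Without N5, N6 and N7 the Saa3 difference was -0.72 ± 0.68, while the ALIOS median was 3.49 times that of the other 9 livers. With limma on log2 CPM and all livers 0 of the 10 genes were called.

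The values without N5, N6 and N7 are given as a description with no p, since these livers were picked as the highest for the same 10 transcripts and leaving them out moves each of these differences upward. That fit put 3 of the 10 genes past the threshold as higher (Saa1, Saa2 and Orm3) and 0 as lower, where 6.71% of 13833 genes were called higher and 3.54% lower, and these counts do not show a rise with diet. The median log2 fold change was 0.89 over the 10 genes and -0.01 over all genes tested. Saa1 was at 143 to 2715 with a median of 895 CPM in the ALIOS livers, and 9 of the 11 lay above all 9 control diet livers (log2 fold change 2.44 ± 0.53). Saa2, its near copy, ranged from 10.6 to 154 CPM in the 9 livers and from 47.7 to 1877 with a median of 301 in the ALIOS livers (log2 fold change 3.53 ± 0.66). Orm3, the least abundant orosomucoid, had a median of 1.92 CPM in the 9 livers and 9.65 in the ALIOS livers (log2 fold change 2.10 ± 0.45). Lcn2, the siderophore binding protein, had medians of 7.32 and 129 CPM and a log2 fold change of 2.10 ± 0.68. Orm2 was at 1.29 ± 0.53, Orm1 at 0.45 ± 0.16, Hp at 0.50 ± 0.23, Hpx at 0.42 ± 0.19 and Apcs at 0.14 ± 0.20 on the log2 scale. For all of the 10 except Orm3 and Saa3, the sign was the opposite with all 12 livers, where Saa1 was at -1.43 ± 0.91, Saa2 at -2.26 ± 1.17 and Lcn2 at -1.91 ± 1.02. Macrophage markers rose with the diet, 8 of 12 being called higher with and without the 3 livers, with sums of 285 to 1068 CPM in the ALIOS livers against 195 to 514 on the control diet and no marker at 0 throughout either group. Neutrophil markers gave 3 of 5 tested called higher without the 3 livers and 0 of 5 with them. The part of these cells in the difference was not tested.

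**Figure D3:**
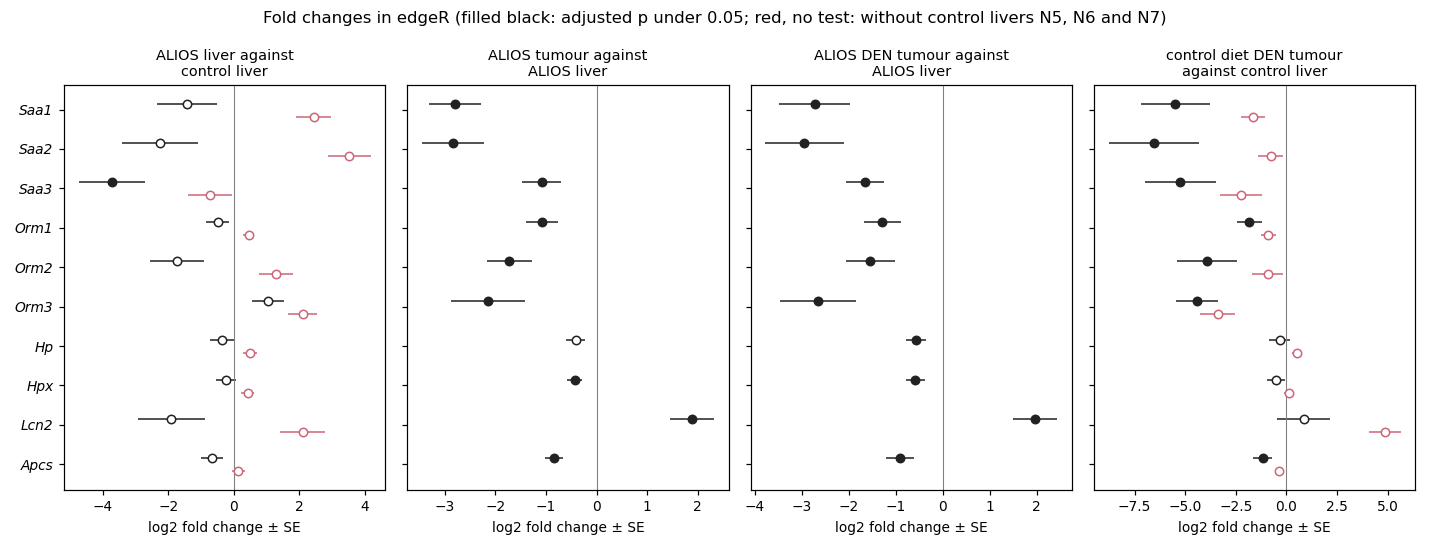
Log2 fold change of each gene with its SE in 4 comparisons from edgeR, in black with all libraries, filled where the adjusted p was under 0.05, and in red without N5, N6 and N7, always open as these carry no test. In liver, 8 of the 10 points change side of 0 once the 3 livers are left out, while Lcn2 lies to the right of 0 in each comparison of a tumour with a liver.

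In tumours that arose on the ALIOS diet, 8 of the 10 transcripts fell relative to ALIOS livers and 1, Lcn2, rose. Among all 14183 genes, 25.9% were called lower and 26.9% higher, and the median log2 fold change was -1.09 over the 10 genes and 0.01 over all genes. Saa1 ranged from 143 to 2715 with a median of 895 CPM in the livers and from 24.995 to 468 with a median of 99.1 in the tumours. All 12 tumours lay below the liver median and 7 lay below every liver, so the groups overlapped only in part (log2 fold change -2.80, SE 0.52, adjusted p = 9.3e-05). Saa2 ranged from 11.5 to 215 CPM in the tumours, again with 7 of 12 below every liver (log2 fold change -2.84, SE 0.61, adjusted p = 0.000462). Saa3, the form macrophages also make, had medians of 7.70 CPM in livers and 3.31 in tumours (log2 fold change -1.09, SE 0.39, adjusted p = 0.0217).

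All 3 orosomucoid genes fell in the ALIOS tumours. Orm3 showed the largest gap in medians, from 9.65 CPM in the livers to 0.286 in the tumours, with 9 of 12 tumours below every liver and T13 at 0 (log2 fold change -2.15, SE 0.73, adjusted p = 0.0169). Orm2 went from a median of 59.4 to 9.58 CPM (log2 fold change -1.73, SE 0.44, adjusted p = 0.00229). Orm1, the abundant form, ranged from 855 to 1954 with a median of 1438 CPM in livers and from 54.2 to 1379.8 with a median of 581 in tumours (log2 fold change -1.09, SE 0.32, adjusted p = 0.00586). The scavenger and pentraxin transcripts moved less: Apcs was at -0.84 ± 0.17 (adjusted p = 0.000324), Hpx at -0.43 ± 0.15 (adjusted p = 0.0185) and Hp at -0.42 ± 0.18 on the log2 scale, and Hp did not pass the threshold (adjusted p = 0.055). When all 6 groups were fitted together, Saa3, at -1.09 ± 0.73 (adjusted p = 0.219), and Hpx, at -0.44 ± 0.25 (adjusted p = 0.149), were no longer called, and Hpx was not called either without the filter on low counts (adjusted p = 0.0731). DESeq2 called Hp as well (adjusted p = 0.0409), and with T1 added 5 of the 10 were called.

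Lcn2 went the other way. It ranged from 16.1 to 296 with a median of 129 CPM in the ALIOS livers and from 119 to 792 with a median of 413 in the tumours. Of the 12 tumours, 11 lay above the liver median and 8 above every liver (log2 fold change 1.89, SE 0.43, adjusted p = 0.000824). Neutrophils also make lipocalin 2. Of their 12 markers only 4 were high enough to be tested, and 0 of these were called. The 12 summed to 4.69 to 31.4 CPM in the livers and 3.82 to 21.97 in the tumours, with none at 0 throughout. Macrophage markers fell in 8 of 12, with sums of 59.6 to 527 CPM in the tumours. The part of either cell type in the difference was not tested.

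Within the ALIOS tumours, T2, T3 and T6 had the highest Saa1 and Orm3. Their Saa1 levels were 468, 409 and 378 CPM and their Orm3 levels 10.7, 5.76 and 6.51, while their macrophage sums, at 527, 426 and 511 CPM, were above the group median of 182. Their hepatocyte sums, at 80563, 108142 and 91847 CPM, were the lowest of the 12, whose median was 167119. The ALIOS livers summed to between 81967 and 144870 CPM, so T3 and T6 lay within the range of the livers and T2 below it. Albumin, the largest part of the sum, had a median of 144297 CPM in the ALIOS tumours and 72898 in the ALIOS livers. The part of cell makeup in the levels of T2, T3 and T6 was not tested. Without these 3 tumours, picked after their values were seen, the log2 fold change of Saa1 was -3.73 ± 0.49, that of Orm3 -5.27 ± 0.43 and that of Lcn2 2.10 ± 0.45, and that of Hp -0.49 ± 0.19, with no p as these tumours were picked by the same transcripts.

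DEN tumours on the ALIOS diet were set against the same 11 ALIOS livers, so both comparisons share their controls. Here 9 of the 10 transcripts fell and Lcn2 rose, with 19.8% of 14434 genes called lower and 27.7% higher, and the median log2 fold change was -1.41 over the 10 genes and 0.08 over all genes. Saa1 ranged from 5.68 to 799 with a median of 55.4 CPM in the 8 tumours, 6 of them below every liver (log2 fold change -2.72, SE 0.75, adjusted p = 0.0059). Orm3 ranged from 0 to 8.29 with a median of 0.177 CPM, with 7 of 8 below every liver (log2 fold change -2.65, SE 0.81, adjusted p = 0.0112). Lcn2 ranged from 109.5 to 710.1 with a median of 421 CPM, with 6 of 8 above every liver (log2 fold change 1.96, SE 0.47, adjusted p = 0.00222).

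The other transcripts fell by differing amounts in the ALIOS DEN tumours. Saa2 was at -2.94 ± 0.83, Saa3 at -1.65 ± 0.41, Orm1 at -1.28 ± 0.40 and Orm2 at -1.54 ± 0.52 on the log2 scale, with adjusted p of 0.00705, 0.00259, 0.0126 and 0.0198. Apcs was at -0.91 ± 0.29, Hpx at -0.59 ± 0.20 and Hp at -0.57 ± 0.22, with adjusted p of 0.0157, 0.0212 and 0.0351. The spread among these tumours was wide: T23 had 799 CPM of Saa1 and 8.29 of Orm3, within the range of the livers, and T24 had 5.68 of Saa1, 41.6 of Orm1 and 87.4 of Apcs, the lowest of the group. In T23 the macrophage markers summed to 629 CPM, the highest of the group, and in T24 to 539, against a group median of 269. Hepatocyte markers summed to 86032 in T23 and 74412 in T24, the lowest of the 8. Against the ALIOS livers, at 81967 to 144870 CPM, T23 lay within the range and T24 below it. The part of these cells in the levels was not tested. Without T24 the Hp difference was -0.48 ± 0.20 and did not pass the threshold (adjusted p = 0.0513), and without T23 the falls were larger, at -3.82 ± 0.69 for Saa1, -4.20 ± 0.77 for Saa2, -2.32 ± 0.44 for Orm2 and -4.42 ± 0.67 for Orm3. When all 6 groups were fitted together 5 of the 10 genes were called lower, and Lcn2 was not called, at 1.91 ± 0.83 (adjusted p = 0.0555), nor were Saa3, Orm2, Hp and Hpx (adjusted p = 0.1, 0.108, 0.114 and 0.0593).

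For the 5 DEN tumours on the control diet, the result depended on which control diet livers they were set against. With all 12 livers, 7 of the 10 transcripts were called lower and 0 higher, where 24.4% of 14731 genes were called lower and 27.3% higher. Without N5, N6 and N7 the fit put 2 past the threshold as lower (Saa1 and Orm3) and 1, Lcn2, as higher, where 24.8% of 14600 genes were called lower and 28.6% higher, and this too is a description, the livers having been picked by the transcripts compared. Lcn2 was at 763, 1317, 604, 436 and 576 CPM in T17 to T21, each above all 9 of the remaining livers, whose highest was 116. Its median was 82.5 times that of the 9 livers (log2 fold change 4.86 ± 0.79), while N5, N6 and N7 themselves lay at 2894, 1286 and 663 CPM. With all 12 livers the Lcn2 difference was 0.85 ± 1.29 in edgeR (adjusted p = 0.607) and 4.13 ± 1.42 with limma on log2 CPM (adjusted p = 0.02), which called 3 of the 10, with Orm1 and Orm3 lower, so the call of Lcn2 depended on the tool. Among the 10 genes, Lcn2 against the 9 livers was the only case in which the 2 groups of a comparison did not overlap.

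Orm3 was low in all 5 of these tumours, at 0.165, 0.593, 0.0648, 0.0908 and 0.0501 CPM, against 0.0397 to 4.76 with a median of 1.92 in the 9 livers, so all 5 lay below the liver median and none below every liver. It was lower with the 3 livers (log2 fold change -4.43, SE 1.05, adjusted p = 0.00153), and without them the difference was -3.40 ± 0.86. Saa1 was at 59.7, 138, 59.3, 34.7 and 43.0 CPM, 2 of the 5 (T20 and T21) below all 12 livers, whose lowest was N2 at 49.2, and its log2 fold change went from -5.49 ± 1.71 with the 3 livers to -1.63 ± 0.59 without them (adjusted p = 0.0114 with them). Saa2 went from -6.56 ± 2.23 to -0.78 ± 0.61, Saa3 from -5.24 ± 1.75 to -2.25 ± 1.04, Orm2 from -3.94 ± 1.48 to -0.93 ± 0.75, Orm1 from -1.83 ± 0.63 to -0.89 ± 0.38 and Apcs from -1.17 ± 0.47 to -0.39 ± 0.19. The Saa3 medians had the opposite order without the 3 livers, that of the tumours being 1.18 times that of the 9 livers. Of the 5 tumours, 4 lay above that liver median, and the highest of the 9 livers were N10 at 80.5 CPM and N8 at 26.5. With all 12 livers the calls of Orm2 and Apcs were also lost without T17, T19, T20 or T21, leaving 5 genes called. Hp and Hpx did not pass the threshold with all 12 livers, and were at -0.33 ± 0.51 and -0.52 ± 0.44 with the 3 livers and 0.52 ± 0.27 and 0.14 ± 0.24 without them.

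Between the 8 DEN tumours and the 12 other tumours on the ALIOS diet, 0 of the 10 transcripts were called. In edgeR 0% of 14845 genes were called higher and 0% lower, with 1079 genes and 0 of the 10 at an unadjusted p under 0.05, while DESeq2 called 75 genes and 0 of the 10. With all 6 groups in 1 fit edgeR called 337 genes higher and 66 lower of 17728, and 0 of the 10. The log2 fold changes lay between -0.62 for Saa3 (SE 0.47) and 0.13 for Orm2 (SE 0.58), and the value for Lcn2 was 0.03 ± 0.35. Errors were wide for the variable genes, with SE of 0.70 for Saa1 and 1.15 for Orm3.

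Diet within the DEN tumours gave a like result, with 0 of the 9 transcripts tested called, 0% of 14944 genes called higher and 0.0134% lower in edgeR, and Orm3 too low to be tested. At an unadjusted p under 0.05 there were 1273 genes, 1 of them among the 9, and DESeq2 called 70 genes higher and 85 lower but 0 of the 9. With all 6 groups in 1 fit edgeR called 171 genes higher and 125 lower of 17728, and none of these transcripts. The transcript with the smallest unadjusted p was Hp, with a median of 4407 CPM in the 5 control diet tumours and 2837 in the 8 ALIOS tumours (log2 fold change -0.59, SE 0.24, adjusted p = 0.504). Saa1 was at 1.36 ± 0.90 and Lcn2 at -0.77 ± 0.38 on the log2 scale. An interaction term, which sets the diet effect of DEN tumours against that of livers, was called for 0 of the 10 with or without N5, N6 and N7, with 1 of the 10 (Saa3) at an unadjusted p under 0.05 with them and 0 called by DESeq2, while over all genes 1.04% of 15606 were called higher and 1.23% lower with them and 0.849% and 1.02% of 15553 without them. For Lcn2 that difference was 1.13 ± 1.43 with the 3 livers and -2.88 ± 0.90 without them (adjusted p = 0.736 with them), so its sign turned with the choice of livers. For Saa1 it was 2.77 and -1.10.

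Other genes of the acute phase pathway were counted from lists of cytokine ligands, receptors, signal transducers and factors, feedback inhibitors, further positive acute phase proteins and negative ones. Interleukin 6 (Il6), named after its values were seen, was barely detected, its highest level being 0.137 CPM over the 49 libraries, and of the 10 ligands 5 were tested in ALIOS tumours against ALIOS livers and 2 rose. The larger of the 2 rises was in Lif (leukaemia inhibitory factor, an interleukin 6 family cytokine) at 4.43 ± 0.61, adjusted p = 3.31e-06. The shares over all genes in that comparison, 26.9% called higher and 25.9% lower, stand beside this count and the next 3. Of the 9 receptors, 3 rose and 5 fell: the largest rise was in Osmr (oncostatin M receptor, 1.65 ± 0.24, adjusted p = 7.25e-06) and the largest fall in Il1rap (the accessory chain of the interleukin 1 receptor, -1.38 ± 0.16, adjusted p = 3.78e-07). Among the 13 transducers 3 rose and 3 fell, led by Nfkb1, an NF-kB subunit (0.56 ± 0.13, adjusted p = 0.000686), and Cebpa, a C/EBP factor (-0.55 ± 0.14, adjusted p = 0.00274). Of 8 feedback genes tested 2 rose and 1 fell, led by Il1rn (the interleukin 1 receptor antagonist, 2.75 ± 0.38, adjusted p = 3.34e-06) and Pim1 (-0.67 ± 0.12, adjusted p = 7.21e-05).

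Of the 23 further positive acute phase genes, 10 were called lower and 2 higher in ALIOS tumours, where 25.9% of all genes were lower and 26.9% higher. The median over the 23 was -0.15 on the log2 fold change scale against 0.01 over all genes. Hamp, the iron hormone hepcidin, fell the most (-2.46 ± 0.64, adjusted p = 0.00266), and Cd14, the endotoxin co-receptor, rose (2.56 ± 0.42, adjusted p = 2.73e-05). Of the 8 genes listed as negative acute phase proteins, a class whose plasma levels drop in inflammation, 4 rose and 3 fell. The rises were led by Trf (transferrin, 1.17 ± 0.17, adjusted p = 8.93e-06) and the falls by Igf1 (-1.38 ± 0.24, adjusted p = 5.15e-05). Trf was not low in N5, N6 and N7, at 8195, 5730 and 4167 CPM against a median of 3984 in the other 9 control diet livers. Of the 15 hepatocyte markers 9 were lower, led by Cyp2e1, a cytochrome P450 (-2.97 ± 0.70, adjusted p = 0.00109), and 1, albumin (Alb), was higher (0.79 ± 0.20, adjusted p = 0.00247).

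In the ALIOS DEN tumours the same lists gave 3 ligands higher of 6 tested, 4 receptors higher and 4 lower of 9, 5 transducers higher and 2 lower of 13, 1 feedback gene higher and 2 lower of 8, 3 further positive genes higher and 8 lower of 23, and 4 negative proteins higher and 2 lower of 8, where 27.7% of all genes were called higher and 19.8% lower. Lif (4.67 ± 0.57, adjusted p = 2.58e-06), Osmr (1.52 ± 0.24, adjusted p = 4.38e-05), Il1rn (2.35 ± 0.39, adjusted p = 8.27e-05), Cd14 (2.69 ± 0.40, adjusted p = 2.51e-05) and Trf (1.15 ± 0.15, adjusted p = 5.89e-06) led the rises. The falls were led by Il1rap (-1.54 ± 0.30, adjusted p = 0.000375), Cebpa (-0.73 ± 0.21, adjusted p = 0.00697), Hamp (-2.44 ± 0.85, adjusted p = 0.024) and Igf1 (-1.44 ± 0.41, adjusted p = 0.00751). Against control diet livers without N5, N6 and N7, the control diet DEN tumours had 8 of the 23 further positive genes past the threshold as higher and 6 as lower (28.6% and 24.8% of all genes), with Cd14 at 3.83 ± 0.29 and Hamp at -3.20 ± 0.58, and with the 3 livers 2 higher and 6 lower (27.3% and 24.4%).

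Between the diets in the livers themselves, 6.73% of all genes were called higher and 4.51% lower with all 12 control diet livers. In that fit 1 ligand of 4 tested (Clcf1, 1.03 ± 0.28, adjusted p = 0.0223), 1 transducer of 13 (Cebpd, 0.78 ± 0.21, adjusted p = 0.0196) and 1 further positive gene of 23 (Cd14, 1.21 ± 0.33, adjusted p = 0.0201) rose, and none fell. Without N5, N6 and N7, again as a description, the genes past the threshold as higher were 1 of 4 ligands (Clcf1), 2 of 9 receptors, led by Osmr (0.59 ± 0.14), 2 of 13 transducers, led by Cebpd (1.07 ± 0.19), 2 of 8 feedback genes, led by Il1rn (1.40 ± 0.32), and 4 of 23 further positive genes, led by the metallothionein Mt2 (2.54 ± 0.68), where 6.71% of all genes were called higher.

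Whether the 10 transcripts moved together from library to library was examined with the TMM log2 CPM of Saa1 against each of the other 9 in the 4 groups of at least 8 libraries, which made 36 relations, tested by 2-sided permutation of the pairings and adjusted over the 36. The control diet group entered these 36 with all 12 livers, so each adjusted p printed below depends on N5, N6 and N7. With the other 9 livers in their place 25 of the 36 passed on Pearson r, the same number as with all 12. That count is a description only, as the 9 livers were what was left after picking by the same transcripts. It was not made for rho, where Orm3 in the ALIOS tumours lay close to the threshold (permutation p adjusted to 0.0494). Saa2 followed Saa1 in every group: r was 0.95 in the 9 control diet livers without N5, N6 and N7, 0.93 in the 11 ALIOS livers, 0.96 in the 12 ALIOS tumours and 0.96 in the 8 ALIOS DEN tumours. In the ALIOS tumours this relation had Pearson r = 0.96 with permutation p = 1e-05 and adjusted p = 5.14e-05, Spearman rho = 0.93 with p = 7e-05 and adjusted p = 0.00036, and r was 0.95 without the 2 libraries farthest from the median of Saa1. Since N5, N6 and N7 form a cluster of their own, the control diet relations are those of the other 9 livers, as a description with no p. In these all 9 genes rose with Saa1, with r from 0.72 for Saa3 to 0.96 for Orm1. Spearman rho ran from 0.70 for Saa3 and Lcn2 to 0.95 for Apcs. Saa1 in these 9 livers left a gap between 109 and 298 CPM, with 5 livers below and 4 above it, too few on either side for a relation within each.

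The relation of Lcn2 with Saa1 did not pass the threshold in any of the ALIOS groups. In the 9 control diet livers, as a description with no p, Pearson r was 0.89 and Spearman rho 0.70, and r was 0.82 without the 2 farthest libraries. In the ALIOS livers the relation did not pass the threshold (Pearson r = 0.48 with permutation p = 0.133 and adjusted p = 0.16, Spearman rho = 0.46 with p = 0.156 and adjusted p = 0.193), and r was -0.03 without the 2 farthest. In the ALIOS tumours r was negative (Pearson r = -0.34 with permutation p = 0.284 and adjusted p = 0.292, Spearman rho = -0.14 with p = 0.669 and adjusted p = 0.688), as it was in the ALIOS DEN tumours (Pearson r = -0.48 with exact p = 0.22 and adjusted p = 0.233, Spearman rho = -0.48 with p = 0.243 and adjusted p = 0.273), and without the 2 farthest libraries it was -0.15 and -0.81. Lcn2 was the only gene of the 9 with a negative Pearson r in either tumour group. Whether r differed between livers and tumours was not tested.

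For the remaining transcripts Saa1 was followed in some groups only. In the ALIOS livers 7 of 9 relations passed the threshold on Pearson r, namely Saa2, Orm1 (r = 0.90, permutation p = 0.00016, adjusted p = 0.000524, rho = 0.91, p = 0.00024, adjusted p = 0.000864, r without the 2 farthest 0.93), Orm2 (r = 0.87, permutation p = 0.00066, adjusted p = 0.00183, rho = 0.86, p = 0.00109, adjusted p = 0.00293, r without the 2 farthest 0.69), Hpx (r = 0.81, permutation p = 0.0025, adjusted p = 0.00474, rho = 0.82, p = 0.00333, adjusted p = 0.00705, r without the 2 farthest 0.73), Apcs (r = 0.75, permutation p = 0.00821, adjusted p = 0.0123, rho = 0.67, p = 0.0279, adjusted p = 0.0437, r without the 2 farthest 0.74), Orm3 (r = 0.81, permutation p = 0.0029, adjusted p = 0.00497, rho = 0.54, p = 0.0937, adjusted p = 0.125, r without the 2 farthest 0.48) and Hp (r = 0.70, permutation p = 0.0157, adjusted p = 0.0226, rho = 0.58, p = 0.0662, adjusted p = 0.0917, r without the 2 farthest 0.48). Those of Orm3 and Hp did not pass on rho. In the ALIOS tumours 4 passed, namely Saa2, Saa3 (r = 0.79, permutation p = 0.00222, adjusted p = 0.00458, rho = 0.82, p = 0.00151, adjusted p = 0.00362, r without the 2 farthest 0.71), Orm2 (r = 0.85, permutation p = 0.00081, adjusted p = 0.00208, rho = 0.69, p = 0.0153, adjusted p = 0.0277, r without the 2 farthest 0.72) and Orm3 (r = 0.80, permutation p = 0.00229, adjusted p = 0.00458, rho = 0.63, p = 0.0329, adjusted p = 0.0494, r without the 2 farthest 0.62), and T2, T3 and T6 were the highest libraries for both Saa1 and Orm3. In the ALIOS DEN tumours 5 passed, namely Saa2, Orm1 (r = 0.92, exact p = 0.0029, adjusted p = 0.00497, rho = 0.83, p = 0.0154, adjusted p = 0.0277, r without the 2 farthest 0.65), Apcs (r = 0.91, exact p = 0.00134, adjusted p = 0.00301, rho = 0.93, p = 0.00223, adjusted p = 0.00502, r without the 2 farthest 0.70), Hpx (r = 0.89, exact p = 0.0037, adjusted p = 0.00605, rho = 0.81, p = 0.0218, adjusted p = 0.0373, r without the 2 farthest 0.42) and Hp (r = 0.91, exact p = 0.00655, adjusted p = 0.0102, rho = 0.57, p = 0.151, adjusted p = 0.193, r without the 2 farthest 0.44). T23 and T24 were the 2 farthest libraries there. The relations of Hp and Hpx rested on them, as r fell to 0.44 and 0.42 without them. Without T24 alone 27 of 36 relations passed, against 25 with it.

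**Figure D4:**
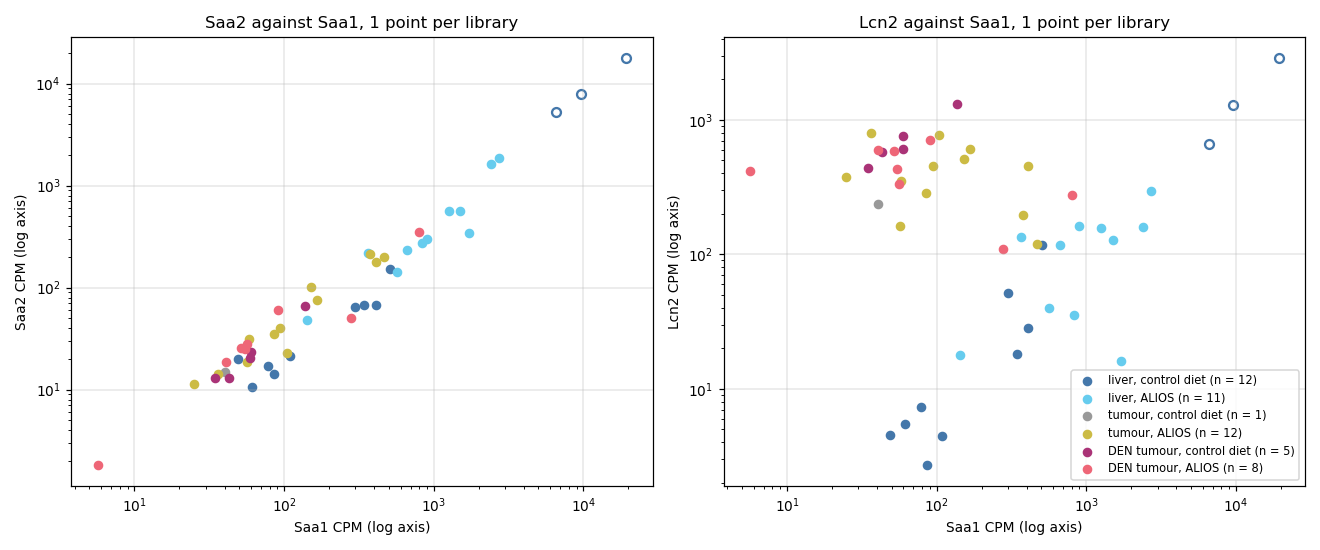
Saa2 (left) and Lcn2 (right) against Saa1 in 49 libraries, as CPM on log axes, with 1 point per library, groups in colour and open circles for N5, N6 and N7. Saa2 lies along a line through livers and tumours, whereas most tumours sit at high Lcn2 and low Saa1, off the line of the control diet livers. Not all do, as T2 (Saa1 468 and Lcn2 119 CPM) lies beside the control diet liver N10 (507 and 116 CPM).

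The transcripts most like Saa1, Lcn2, Orm1 and Hp were then listed as the 5 other genes of 17728 with the highest Pearson r, over the 48 libraries of the 5 groups with more than 1 library, of log2 CPM centred on the group mean. These are descriptions, and the points share libraries and depth. For Saa1 they were Saa4 (0.79), Qsox1 (0.79), Fgl1 (0.77), Cd302 (0.76) and Tifa (0.76), of which Saa4 is the constitutive serum amyloid A gene and Fgl1 a fibrinogen-like liver protein. For Hp they were Serpina10 (0.85), Lrg1 (0.83), Saa4 (0.82), Qsox1 (0.76) and Pdia5 (0.76). For Orm1 they were Tifa (0.80), Wfdc21 (0.76), Gm15998 (0.75), Serping1 (0.75) and Slc13a5 (0.72). For Lcn2 they were Tmem176a (0.85), Tmem176b (0.85), Cyb561 (0.80), Serpina10 (0.79) and Prtn3 (0.79), of which Tmem176a and Tmem176b are neighbouring genes for membrane proteins. Among the 10 genes, the r of Hp with Hpx was 0.92, and that of Lcn2 was highest with Saa3 (0.80) and lowest with Orm3 (0.31). These pooled values include N5, N6 and N7, the highest control diet livers for all of these genes. They do not say that a pair moved together within each group, and Lcn2 with Saa3 was not tested within groups. Without T24, Qsox1 (0.82), Ifitm2 (0.82), Fgl1 (0.79), Saa4 (0.77) and Cd302 (0.77) were closest to Saa1 and Cyb561 (0.86), Tmem176b (0.86), Tmem176a (0.85), Serpina10 (0.79) and Prtn3 (0.79) to Lcn2. Without N5, N6 and N7, Lcn2 was again closest to Tmem176a and Tmem176b, while Saa1 was closest to Serping1 (0.79), Gjb2 (0.75), Crp (0.75), Serpina11 (0.74) and Saa4 (0.73).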

How the data were processed

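For 50 stranded mRNA libraries the authors aligned reads to mm10 (STAR, 2 passes) and deposited raw HTSeq counts (intersection-nonempty mode) for Gencode M6 genes. Tool versions and the strand option are not given in the sources used here. Fits used edgeR 4.0.16 (R 4.3.3; filterByExpr, TMM, glmQLFit, glmQLFTest) on the libraries of the groups compared, with adjusted p (Benjamini-Hochberg over all genes tested) under 0.05 as a call and SE as the fold change over the root of F. CPM and log2 CPM (prior count 2) used all 49 libraries. Depth, 23798251 to 45751398 counts per library, leaves genes of a few counts (Orm3 in tumours) imprecise. Permutations used 100000 resamples (smallest p 1e-05), or all pairings under 10 libraries, in scipy 1.17.1. Scripts were tested on simulated data. Alternatives were DESeq2 1.42.0, its size factors, limma 3.58.1 on log2 CPM, no filter, all groups in 1 fit, and left-out libraries. The genes, lists, tests and left-out livers were chosen with earlier results of these data known. All 10 genes were named in each comparison, and from other lists the called gene with the largest change in each direction. The result for 1 gene so chosen is not reported here.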

Additional observations from a re-analysis of the deposited data

Results flagged for a closer look

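In the 2 groups of 5 and 8 tumours, the gap between the extreme library and its neighbour, as a share of the group's range, was above Dixon's 95% limit for 8 of the 20 pairs of gene and group. The levels were not log transformed and the genes moved together, so no rate expected by chance is set beside this count. They belonged to 2 libraries, each the highest of its group. The ALIOS DEN tumour T23 stood out for Saa1 (799 CPM, group median 55.4), Saa2 (354, median 26.9), Orm2 (73.7, median 9.48) and Orm3 (8.29, median 0.177). The control diet DEN tumour T18 stood out for the same 4 genes, with Saa1 at 138 CPM (median 59.3), Saa2 at 65.4 (median 20.2), Orm2 at 31.5 (median 8.61) and Orm3 at 0.593 (median 0.0908). The marker sums of the libraries differed: T23 had the highest macrophage sum of its group, at 629 CPM, and T18 had the lowest of its own, at 78.0 CPM. The part of these cells was not tested.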

How the results depend on the processing

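No paired analysis was possible because the labels do not tie a tumour to the liver of a mouse. The fits without N5, N6 and N7, without T23, without T2, T3 and T6, and with limma were chosen after the values were seen. The number of the 10 genes called moved by over 1.5 times for diet in liver (1 in edgeR, 0 with limma, 3 without N5, N6 and N7, 5 with limma without them), for ALIOS tumours against livers once T1 was added (9 to 5), for ALIOS DEN tumours against livers with all 6 groups in 1 fit (10 to 5), for control diet DEN tumours against livers (7 in edgeR, 3 with limma, 3 without N5, N6 and N7, and 3 with both), and for the interaction (0, and 1, Lcn2, with limma without the 3 livers). The rest stayed within it, as did the 25 of 36 relations (25 to 27), and 1 adjusted p that DESeq2 left undefined (Saa2, control diet DEN tumours) was not counted. No single liver was left out. Against livers, 9 genes were called in ALIOS tumours without T9, 9 to 10 in ALIOS DEN tumours without T24 or T23, and 5 to 7 in control diet DEN tumours without each of T17 to T21 in turn (Orm2 and Apcs lost the call without T17, T19, T20 or T21). The fits without 1 of these 8 tumours that bore on the comparisons between tumours and on the interaction called 0 to 0. Of the values for single genes, 574 kept their direction and side of the threshold, 38 lost the call, 7 gained it and 67 changed sign, and the cause was not tested. Those with another sign, as log2 fold changes, were for diet in liver without N5, N6 and N7 Saa1 2.44, Saa2 3.53, Orm1 0.45, Orm2 1.29, Hp 0.50, Hpx 0.42, Lcn2 2.10 and Apcs 0.14, with limma Saa1 1.0007, Saa2 1.35, Orm2 0.45, Hp 0.0549, Hpx 0.0548 and Lcn2 0.99, and with limma without the 3 livers Saa1 2.54, Saa2 3.38, Saa3 0.76, Orm1 0.47, Orm2 1.84, Hp 0.57, Hpx 0.49, Lcn2 2.68 and Apcs 0.0896. For the interaction they were without the 3 livers Saa1 -1.10, Saa2 -2.17, Orm1 -0.41, Orm2 -0.61, Lcn2 -2.88 and Apcs -0.54, with limma Saa1 -0.71, Saa2 -0.91, Orm1 -0.0005, Orm3 -0.90, Lcn2 -1.84 and Apcs -0.15, with both Saa1 -2.26, Saa2 -2.95, Saa3 -1.14, Orm1 -0.56, Orm2 -1.35, Orm3 -1.66, Lcn2 -3.54 and Apcs -0.64, and over fits without 1 library Hpx from -0.18 to 0.0489. For control diet DEN tumours against livers they were without the 3 livers Hp 0.52 and Hpx 0.14, with limma Hp 0.13, and with both Hp 0.64 and Hpx 0.22. For DEN against other ALIOS tumours they were without T2, T3 and T6 Saa2 0.85, Orm1 0.15 and Lcn2 -0.15, with limma Saa1 -0.65, and over fits without 1 library Saa1 from -1.04 to 0.20, Saa2 from -1.39 to 0.0267, Orm2 from -0.63 to 0.0508 and Apcs from -0.29 to 0.018. For diet in DEN tumours they were with limma Orm1 -0.0788, with DESeq2 Orm2 -0.0803, and over fits without 1 library Saa3 from -0.48 to 0.0018, Orm1 from -0.30 to 0.44 and Orm2 from -0.0624 to 1.49.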

Other observations

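The 1 tumour of a control diet mouse without DEN, T7, entered no comparison. Its Saa1 level was 40.4 CPM, below the lowest ALIOS liver (143) and the lowest control diet liver (49.2). Its Saa2 level of 14.9 and Orm3 level of 0.116 were below the lowest of the ALIOS livers. Against the control diet livers, whose lowest levels were 10.6 and 0.0397, both lay within the range. Its Lcn2 level was 236 CPM, above the highest of the 9 control diet livers other than N5, N6 and N7 but below N5, N6 and N7. It lay within the ranges of both the ALIOS livers and the ALIOS tumours. Hp was at 2540.2, Hpx at 4005, Orm1 at 241 and Apcs at 401 CPM. With 1 library there is no spread to set these against.

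Crp, the pentraxin related to Apcs, was at a median of 412 CPM in control diet livers and 439 in ALIOS livers, and fell in the ALIOS tumours to 179 (-1.15 ± 0.17, adjusted p = 7.12e-06) and in the ALIOS DEN tumours to 157 (-1.26 ± 0.27, adjusted p = 0.000926). Crp and Socs3 were picked after their values were seen. Socs3, the feedback inhibitor that STAT3 induces, had medians of 7.56, 9.18, 12.9 and 12.3 CPM in the same groups, with a log2 fold change of 0.36 ± 0.25, adjusted p = 0.244 in ALIOS tumours against ALIOS livers.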
